A study of Mus musculus with 12 samples.

Results

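Transposable element (TE) copies that lie in exons of protein-coding genes were described in gonocytes, the male germ cells of the newborn testis, with and without Morc1. A copy was included when at least 1 of its bases fell in an exon of a protein-coding gene of GENCODE release M21 (mouse build GRCm38), on either strand, and when it held no first base of a protein-coding transcript of its own strand. Of 298593 TE copies listed, 11064 met this rule, and they are called exonic copies here. The germ cells came from testes of Mvh-Venus reporter mice at P0 (postnatal day 0), and their RNA was counted in 3 libraries of Morc1 (+/-) animals, labelled het, and 3 libraries of Morc1 (-/-) animals, labelled KO. All 6 libraries carried the reporter, the controls had a single intact Morc1 allele, and the labels do not say whether libraries came from separate animals, so p-values measure the spread between these libraries. The P3 libraries of the same study were not used here.

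Morc1 encodes an ATPase of the MORC family that takes part in TE silencing in male germ cells. TE insertions that end up inside genes can be spliced into messages as exons, can supply the polyadenylation signal that ends a message, or can lie silently in a long 3' UTR. RNA from such a copy may belong to the host gene's own message or to a transcript driven by the element, and a read count on the copy alone does not separate them.

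Of the 11064 exonic copies, 4777 overlapped a 3' UTR. The other 6287 comprised 897 in coding sequence, 576 in 5' UTRs and 4814 in exons of other transcripts of coding genes, such as retained introns and processed transcripts. The annotated orientation was opposite to the host gene for 6451 copies, the same for 4562, and both for 51 that lay in genes of both strands. Exonic copies were short, with a median length of 236 bases against 375 for all listed copies, and 7426 lay wholly within exons. The strand is that of the annotation only, since the cDNA kit does not mark the strand of the RNA.

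Where a copy supplied a splice site of an annotated transcript, the exonic sequence across the junction could be read from the GENCODE M21 transcript sequences. Windows are shown for copies that were higher in KO and whose splice sites resembled one another, because the shared bases tie copies on different chromosomes together. Each window runs 5' to 3' along the host transcript, and the capitals mark the bases that lie in the TE copy.
Anapc10, copy at chr8:79759761-79766188: TGGGTTCTGATGATGcaacttgaattggtg
Cfap161, copy at chr7:83783324-83788471: TGGGTTCTGATGATGctgtatctaacaagt
Amph, copy at chr13:19059298-19065765: TGGGTTCTGATGATGgcagagggtaccaga
Glrx2, copy at chr1:143711068-143717196: TGGGTTCTGATGATGacaatacagcaagga
Caps2, copy at chr10:112167298-112174742: TGGGTTCTGATGATGgtcttgtttaaacaa
4930512M02Rik, copy at chr11:11626693-11631494: TGGGTTCTAATGATGaccagcgtattactg
Focad, copy at chr4:88281225-88288079: TCCAGAGGCTGTCAGgttcatcttgaagag
Wapl, copy at chr14:34702229-34709520: TCCAGAAGCTGTCAGtcacctacaaaagct
Pnpla8, copy at chr12:44231313-44232659: ACCCTAAGACCTCTGggactcaagtcacct
A630073D07Rik, copy at chr6:132636896-132643098: ATCCTAAGACCTCTGggttcccaggatcag
Lrrc8d, copy at chr5:105727774-105729045: tcgaggggaggagagCTGATGAGTTCTGAA
Abhd2, copy at chr7:79340784-79342046: gaatgttcacctatgCTGATGAGTTCTGAA

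The first 5 copies supplied a splice donor that followed the same 15 bases. The 4930512M02Rik copy differed from them by G9A, counted from the first base of the window. The Focad and Wapl donors differed by G7A, and the Pnpla8 and A630073D07Rik donors differed by C2T. The Lrrc8d and Abhd2 copies each supplied a splice acceptor that opened with the same 15 bases.

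A second set of short sequences came from exonic copies in which an annotated protein-coding transcript ended. The windows hold the last AATAAA hexamer, the usual polyadenylation signal, in capitals, and belong to copies of the host gene's strand that were higher in KO.
Patj, copy at chr4:98454410-98454761: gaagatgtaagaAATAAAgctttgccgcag
Cdh26, copy at chr2:178487034-178487414: actgtgagccagAATAAAcccttcctcctc
C6, copy at chr15:4803624-4804141: gcacctcagcttAATAAAtgagaccttgat
The hexamer lay 20 bases before the end of the Patj transcript and 30 bases before that of C6. Among 678 protein-coding transcript ends inside exonic copies of the same strand, 54.7% had AATAAA in their last 50 bases, on the strand of the transcript. The share was 41.9% of 453 ends inside copies of the opposite strand and 38.8% of all 52146 protein-coding transcript ends.

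Sequencing depth lay between 28363683 and 32816861 reads on genes and between 1974504 and 3703419 reads on TE copies per library, of which 322374 to 372962 fell on exonic copies. Morc1 itself, the disrupted gene, had normalized read counts of 7248, 7485 and 4126 in het against 1360, 1343 and 1794 in KO (log2 fold change -2.03 ± 0.27, SE; limma adjusted p = 0.0109). All 9 gonocyte markers were present, summing to 127215 to 188525 normalized reads. The library of het replicate 3 stood apart: its 5 Leydig cell markers summed to 24921, against 509.6 to 1079 in the other 5 libraries, and its values across the 4571 tested exonic copies had Spearman correlations of 0.61 to 0.73 with the other libraries, against 0.66 to 0.86 among those. Its closest neighbour was KO replicate 2, at 0.73. The correlations of KO replicate 2 with the other 5 libraries were also low, at 0.66 to 0.73.

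Few exonic copies changed. Of 4571 with a mean of at least 10 normalized reads, 60 were higher and 22 lower in KO (limma on log2 of the normalized count plus 1, adjusted p under 0.05 over all 49781 tested copies). These are 1.31% and 0.481% of the tested exonic copies, whereas 15.6% of all tested copies were higher and 0.735% were lower. Intergenic copies were higher in 28.1% of cases and intronic copies in 7.59%. The 60 higher copies lay in 54 genes and had log2 fold changes of 1.13 to 5.03, with a median of 2.79. The 22 lower copies lay in 21 genes and fell by 1.24 to 3.51 on the log2 scale, with a median of -2.01. In each of the 82 copies the KO and het libraries did not overlap. Such a separation was seen upward in 190 and downward in 432 of the tested exonic copies, against 22.8% and 7.58% of all tested copies. The filter took the mean over all 6 libraries, so a copy under 10 in 1 group was tested only through its reads in the other. Without the filter, 65 of the 11064 exonic copies were higher and 23 lower.

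The balance of rises and falls depended on the scaling. Size factors taken from genes instead of TE copies raised the median of all copies from 0.03 to 0.34 and that of exonic copies from -0.22 to 0.10, and gave 82 higher and 8 lower exonic copies (18.1% and 0.376% of all copies). Quantile normalization lowered the 2 medians to -0.41 and -0.67 and gave 36 higher and 100 lower exonic copies (11.6% and 2.08% of all copies). The same 60 copies were called higher with gene size factors and 36 of them after quantile normalization, while 8 and 22 of the 22 lower copies were called. The number of higher copies fell to 30 without KO replicate 1 and to 30 without KO replicate 3, and the number of lower copies to 5, 6, 14 and 13 without het replicates 1 and 2 and KO replicates 2 and 3.

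Among 3' UTR copies the median log2 fold change was -0.15, and 22 of 2309 were higher (0.953%) and 6 lower. Copies in other exon parts had a median of -0.30, with 38 of 2262 higher (1.68%) and 16 lower. Within the other parts, copies in 5' UTRs were higher in 8 of 226 cases, those in coding sequence in 5 of 562, and those in exons of other transcripts in 25 of 1474. With gene size factors the medians were 0.17 for 3' UTRs, -0.08 for coding sequence, -0.06 for 5' UTRs and 0.07 for other transcripts, so the medians of 3' UTR copies and of copies in other transcripts changed sign with the scaling, while those of coding and 5' UTR copies were below 0 under both.

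Taken over all exon parts, orientation separated the exonic copies little. Of 2550 copies opposite to the host gene, 34 were higher and 13 lower, and of 1985 copies of the host strand, 26 were higher and 9 lower (1.33% and 1.31% higher). None of the 36 copies with hosts on both strands was called. The median log2 fold change was -0.21 for opposite and -0.23 for same orientation. By exon part, 9 of 1201 opposite and 13 of 1079 same-strand copies were higher in 3' UTRs (0.749% and 1.2%). In other parts these were 25 of 1349 and 13 of 906 (1.85% and 1.43%). Among copies with under 10% of their bases in exons, 21 of 140 opposite and 7 of 85 same-strand copies were higher. The differences between shares of copies were not tested, since copies in 1 gene or of 1 family share reads.

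**Figure D1:**
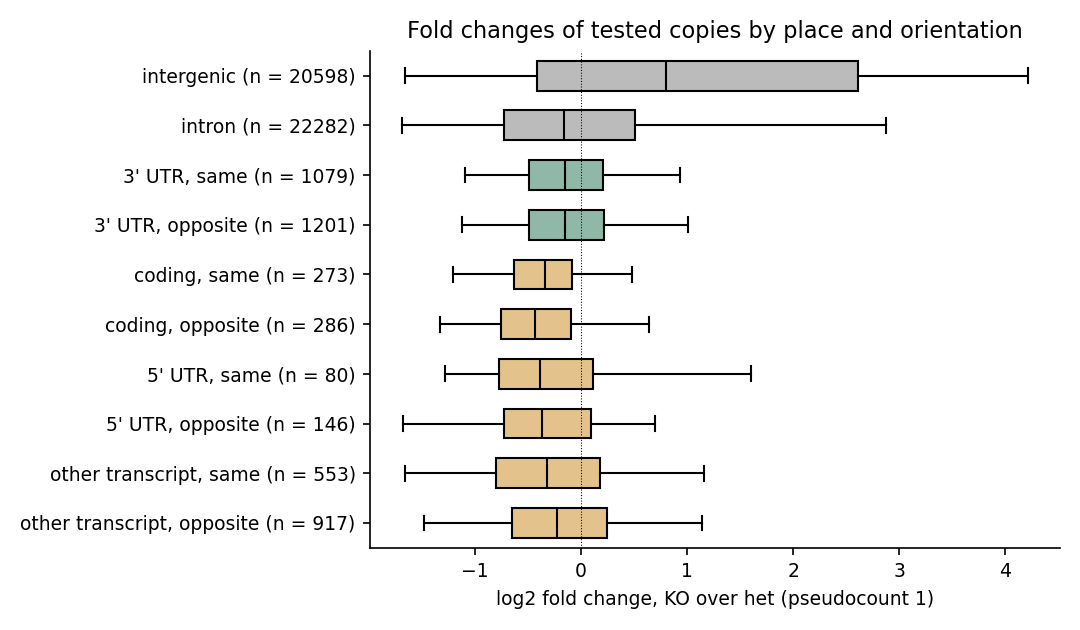
Log2 fold change of tested copies, KO over het (horizontal axis), by place and, for exonic copies, by annotated orientation to the host gene; boxes span the quartiles with the median, whiskers the 5th to 95th percentiles, and n counts copies. Intergenic copies extend far to the right, with a median of 0.80, while the medians of the exonic classes lie below 0.

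Summed over exonic copies, reads per 100 gene reads averaged 1.06 in het against 1.15 in KO. This is opposite in direction to the median fold change of exonic copies with size factors from TE copies. Exonic copies held 1.04, 1.02 and 1.12 reads per 100 gene reads in het against 1.09, 1.22 and 1.15 in KO, so the groups overlapped (exact two-sided permutation p = 0.2, where 0.1 is the smallest that 3 against 3 libraries allow). 3' UTR copies held 0.566, 0.562 and 0.666 in het against 0.608, 0.719 and 0.689 in KO (exact p = 0.2), with het replicate 3 inside the KO range. Copies in other parts held 0.470, 0.459 and 0.452 in het against 0.482, 0.50 and 0.462 in KO (exact p = 0.2). The log2 ratio of 3' UTR to other-part reads was 0.37 ± 0.16 in het against 0.48 ± 0.13 in KO (SD, n = 3 each; exact p = 0.3).

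Reads on opposite-strand copies did not overlap between groups, at 0.539, 0.528 and 0.553 in het against 0.577, 0.614 and 0.596 in KO (exact p = 0.1). Reads on same-strand copies did overlap, at 0.484, 0.479 and 0.549 in het against 0.499, 0.590 and 0.541 in KO (exact p = 0.3). The log2 ratio of opposite-strand to same-strand reads was 0.10 ± 0.08 in het against 0.13 ± 0.08 in KO (exact p = 0.7), so a difference between orientations was not detectable. For comparison, intergenic copies held 2.11, 1.97 and 3.18 reads per 100 gene reads in het against 4.11, 6.01 and 4.45 in KO (exact p = 0.1). Adjusted over the 16 such measures computed (Benjamini-Hochberg), every one of these p-values was at least 0.32.

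**Figure D2:**
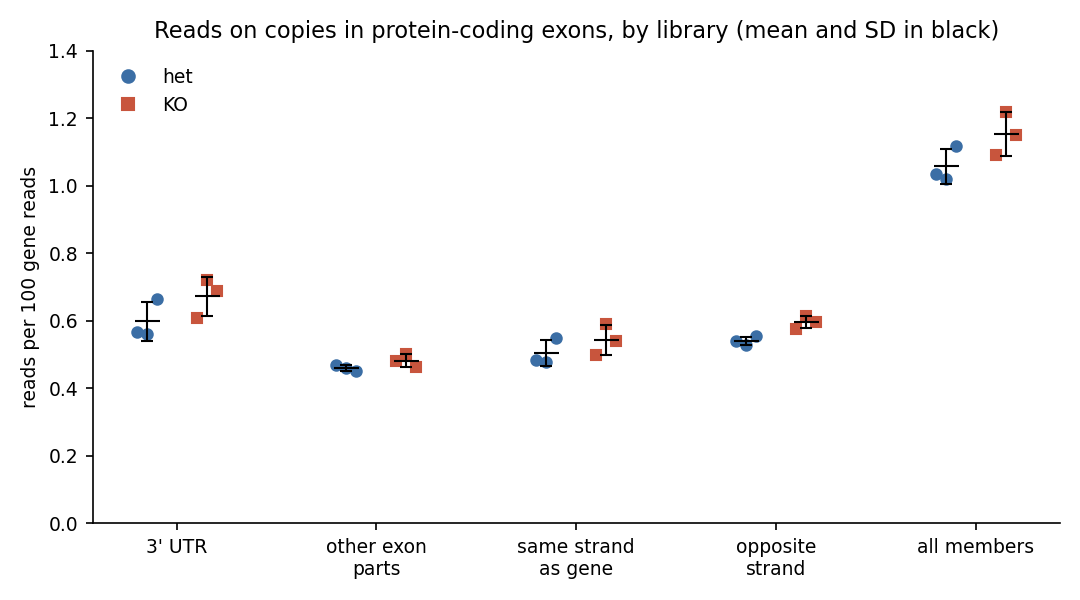
Reads on exonic copies per 100 reads on genes (vertical axis) for 3' UTR copies, copies in other exon parts, both orientations and all exonic copies; each point is a library, circles het and squares KO, with the mean and SD in black. Opposite-strand reads are the only set shown in which all 3 KO libraries lie above all 3 het libraries.

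Higher calls were most frequent among long copies. Of the 57 tested exonic copies over 5000 bases, 21 were higher (36.8%) and none was lower, and their median log2 fold change was 1.55. The corresponding share was 52.3% for intronic and 61.1% for intergenic copies of that length. Of those over 1000 and up to 5000 bases, 11 of 231 were higher, all of them outside 3' UTRs, and up to 250 bases 8 of 2259 were higher and 9 lower. Exons covered under 10% of the bases in 40 of the 57 longest copies, of which 19 were higher. Of the 225 copies with under 10% of their bases in exons, 28 were higher (12.4%), compared with 18 of the 3054 copies that lay wholly in exons (0.589%). Reads from near-identical copies may have been assigned to any of them, since the treatment of multiply mapped reads is not given in the sources used here.

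Some exonic copies held splice sites or transcript ends, anywhere along the copy. A splice site of the host gene lay in 29 of the 60 higher copies (48.3%), in 3 of the 22 lower copies and in 22.3% of all tested exonic copies. Donors were the more frequent kind, in 23 higher copies (38.3% against 12.3% of tested copies), while acceptors lay in 11 (18.3% against 14.7%). An annotated transcript end lay in 8 higher copies (13.3% against 10.6%). These shares were not compared at equal length or exon cover, which differed between the sets. Exons covered under 10% of the bases in 28 of the 60 higher copies, against 225 of the 4571 tested. The first base of a host transcript running against the copy lay in 14 higher copies (23.3% against 3.89%), and 10 of these 14 also held a donor. The selection rule removed copies with protein-coding starts on their own strand but not these. Such a start was frequent in long copies, at 33.3% of the 57 over 5000 bases. Over all 178 tested copies with such a start, 7.87% were higher, and the median log2 fold change was -0.21. Of the 64 that also held a donor, 15.6% were higher, with a median of -0.24.

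The donor word shown above recurred beyond the copies already listed. It preceded 19 of 217967 annotated splice donors of protein-coding genes, and 11 of these lay in exonic copies, each oriented against its host gene and 1167 to 7445 bases long. In the 10 copies that were tested, the annotated transcript that used the donor also began inside the copy. All 10 had log2 fold changes above 0, from 0.79 to 3.34 with a median of 2.32, and 5 were called higher, whereas the median of their host genes was 0.68. These 10 copies were 5148 to 7445 bases long. Of all tested exonic copies over 5000 bases, 36.8% were higher, with a median of 1.55. For intronic copies of that length the values were 52.3% and 2.13. The filter took the mean over all 6 libraries, so a copy under 10 in het was tested only if its KO mean was higher. Of the 5 called copies, those in Anapc10, Cfap161 and Caps2 had het means of 3.21, 6.63 and 3.83. Those in Amph and Glrx2 had 12.7 and 24.6. This group was assembled after its values had been seen, and its members share sequence, so the count is a description of tested copies.

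The Anapc10 copy, in a gene for an anaphase-promoting complex subunit, had normalized counts of 2.11, 5.61 and 1.92 in het against 38.2, 46.4 and 32.5 in KO (3.34 ± 0.67, SE; limma adjusted p = 0.00565). Its host gene had a log2 fold change of 0.25. The Glrx2 copy, in a mitochondrial glutaredoxin gene, had 14.8, 16.8 and 42.2 in het against 129, 114 and 107 in KO (2.35 ± 0.47, adjusted p = 0.00564), and its host gene 0.18. In both copies the lowest KO library exceeded the highest het library by more than the range within het. The Amph copy, in the gene for the endocytic protein amphiphysin, had 9.49, 17.9 and 10.5 in het against 85.8, 70.4 and 56.5 in KO. The 5 copies with the donor word that were not called included the Ces5a copy, with 24.3, 37.0 and 28.8 in het against 85.8, 74.3 and 58.2 in KO (1.25 ± 0.42, adjusted p = 0.0649), and the Lipo3 copy, with 9.49, 12.3 and 4.79 in het against 9.54, 27.9 and 12.8 in KO, where the groups overlapped.

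**Figure D3:**
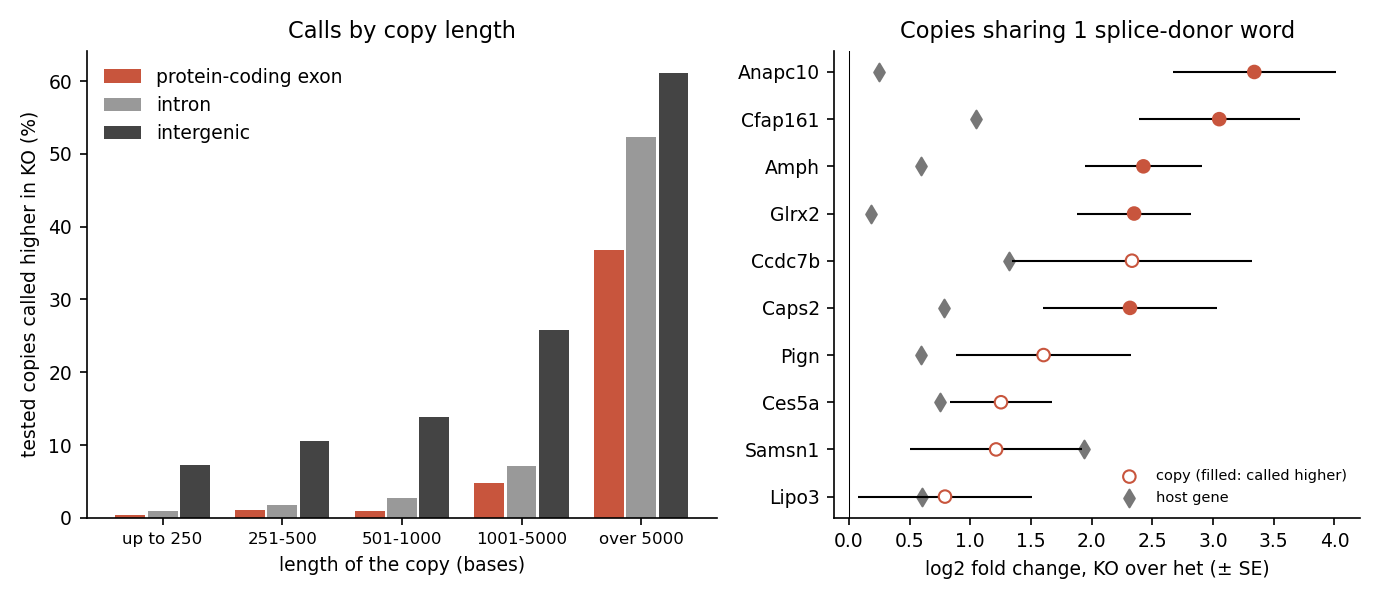
Left, percentage of tested copies called higher in KO (vertical axis) by copy length for copies in protein-coding exons, introns and intergenic sequence. Right, log2 fold change ± SE of the 10 tested copies that share a splice-donor word (circles, filled where called) and of their host genes (diamonds); 5 of the 10 copies are called and all lie above 0.

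Among 3' UTR copies, the highest fold changes belonged to the copies in Gbp9, Gimd1, Patj, Klhdc7a, Olfr907 and Ifi44. Their het means were 3.16, 0.35, 8.07, 1.08, 9.51 and 4.13, all under the filter mean of 10, so they were tested only through their KO reads. The Gbp9 copy, in the gene for an interferon-inducible guanylate-binding protein, had normalized counts of 9.49, 0 and 0 in het against 38.2, 31.7 and 52.2 in KO (4.22 ± 0.99, SE; limma adjusted p = 0.0127). It was not called by edgeR (adjusted p = 0.0611) or by limma with a pseudocount of 0.1 (adjusted p = 0.0589). The Gimd1 copy had 1 read in het against 73 in KO, a ratio of 60.0 with a 95% counting interval of 10.4 to 2401. The Klhdc7a copy, in a kelch-domain gene, had 3 reads in het against 74 in KO (ratio 20.3, 6.67 to 100.5). These intervals are exact binomial and cover counting error only.

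The Patj copy, in the gene for a scaffold protein of tight junctions, had 9.49, 2.24 and 12.5 in het against 146, 59.6 and 154 in KO (3.85 ± 0.64, adjusted p = 0.00199). This is the copy whose AATAAA window is printed above, and Patj itself had a log2 fold change of 1.55. The Ifi44 copy, in an interferon-induced gene, had 4.22, 3.36 and 4.79 in het against 51.5, 20.9 and 64.2 in KO. The Olfr907 copy, 6413 bases long and next to an olfactory receptor exon that covers 0.249% of it, had 6.33, 1.12 and 21.1 in het against 59.1, 84.4 and 57.3 in KO. In all 6 the groups were apart, as their selection required, with het replicate 3 the highest het library for Patj, Olfr907 and Ifi44.

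Outside 3' UTRs, the 6 highest fold changes belonged to the copies in Tmc2, Pnpla8, A830018L16Rik, Ms4a6d, Acer2 and Olfr1224-ps1. The Tmc2 copy, which supplies a donor in the 5' UTR of a mechanotransduction channel gene, had 2 reads in het against 168 in KO (ratio 69.0, 95% counting interval 18.8 to 574), and Tmc2 itself had a log2 fold change of 4.94. The Pnpla8 copy, in the 5' UTR of a calcium-independent phospholipase gene, had normalized counts of 4.22, 0 and 15.3 in het against 163, 183 and 89.8 in KO (4.99 ± 0.86, adjusted p = 0.00243). Pnpla8 itself, with means of 4754 normalized reads in het against 4588 in KO, had a log2 fold change of -0.07. Relative to the gene the copy was higher by 5.06 ± 1.01 on the log2 scale (adjusted p = 0.317).

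The A830018L16Rik copy had 2.11, 2.24 and 3.83 in het against 88.7, 75.9 and 58.2 in KO (4.34 ± 0.58, adjusted p = 0.000728). The Ms4a6d copy, 5799 bases long and in the 5' UTR of a membrane-spanning protein gene, was the most abundant of the 6, with 25.3, 14.6 and 47.0 in het against 434, 424 and 284 in KO (3.80 ± 0.46, adjusted p = 0.000502). The Acer2 copy, in a gene for a Golgi ceramidase, had 10.5, 1.12 and 0 in het against 21.9, 36.4 and 59.9 in KO (3.69 ± 0.95, adjusted p = 0.0207), with adjusted p = 0.0704 by edgeR. The Olfr1224-ps1 copy had 0, 4.49 and 0 in het against 19.1, 15.5 and 30.8 in KO (3.63 ± 1.07, adjusted p = 0.0381), with adjusted p = 0.0705 by edgeR. The KO libraries lay above the het libraries in each of the 6, as their selection required.

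Outside 3' UTRs, the 3 largest falls among called copies were in exons of other transcripts. The Sec22a copy, in a vesicle trafficking gene, had 26.4, 20.2 and 29.7 in het against 5.72, 0.774 and 0 in KO (-3.51 ± 0.96, adjusted p = 0.0260), while Sec22a itself had a log2 fold change of -0.32. The Rab3gap2 copy, in the gene for the noncatalytic subunit of a Rab3 GTPase-activating complex, had 26.4, 28.0 and 13.4 in het against 1.91, 0.774 and 0.855 in KO. The lowest called copy of Lss, the lanosterol synthase gene, had 39.0, 25.8 and 9.58 in het against 1.91, 1.55 and 1.71 in KO. All KO values of these 3 copies lay below all het values, again a condition of their selection. The lowest 3' UTR copies were those in Cypt4, Gne and Zfp672.

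The Cypt4 copy had 35.9, 47.1 and 153 in het against 3.82, 3.87 and 15.4 in KO (-3.16 ± 0.71, adjusted p = 0.0101). Its het value was highest in replicate 3, the library with the high Leydig cell markers, whose part in this fall was not tested; the copy stayed called without that library and was no longer called without KO replicate 1 or without both het replicate 3 and KO replicate 2. The Gne copy, in the gene for the first enzyme of sialic acid synthesis, had 30.6, 32.5 and 39.3 in het against 14.3, 8.51 and 3.42 in KO, and the Zfp672 copy, in a zinc finger gene, had 47.5, 62.8 and 34.5 in het against 17.2, 6.19 and 17.1 in KO. The calls of both were lost with gene size factors, as was that of the Lss copy.

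**Figure D4:**
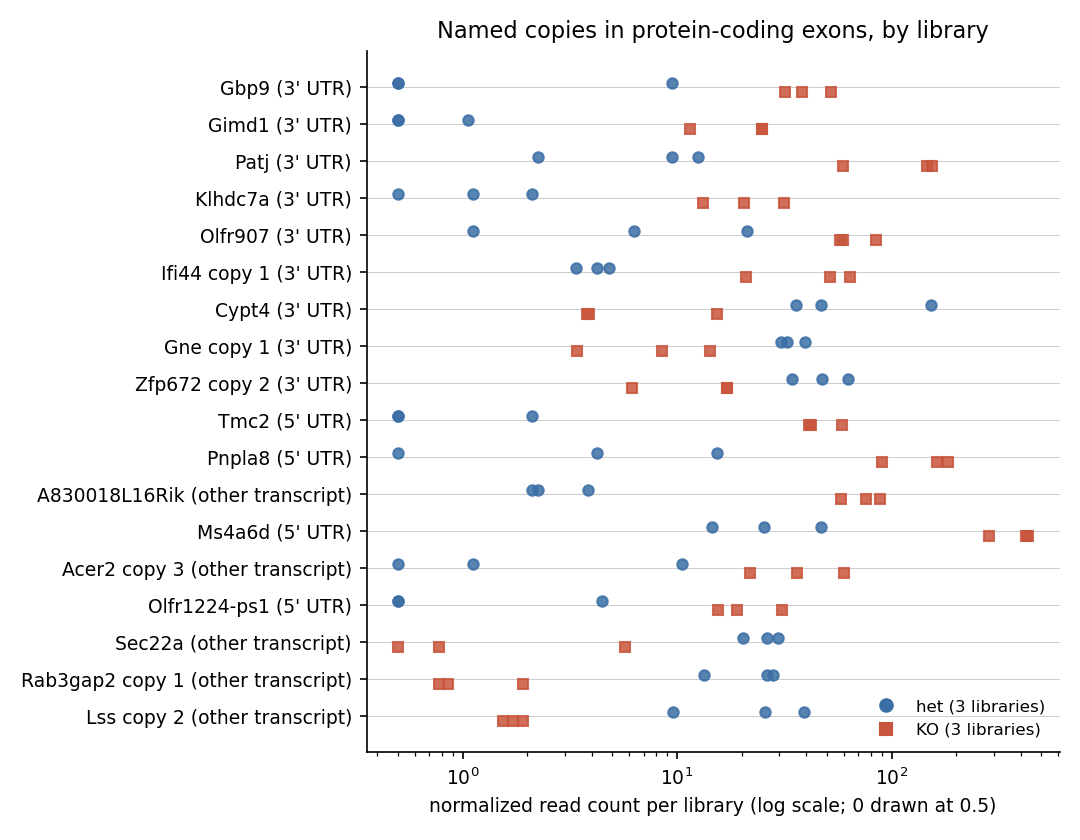
Normalized read count (horizontal axis, log scale, 0 drawn at 0.5) of the 12 higher and 6 lower named copies in each library; circles are het, squares KO, and the exon part is in parentheses. The 3 KO libraries lie on one side of the 3 het libraries for every copy shown, a condition of their selection that every called copy met.

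Copies and host genes tended to move together. Across the 4482 copies with 1 tested host gene, the log2 fold changes of copy and host had a Spearman correlation of 0.51, a description over copies that share reads with their hosts. It was 0.61 for 3' UTR copies and 0.42 for the other parts. When each copy's log2 value was taken relative to its host's in the same library, no exonic copy was called (0% of the 4553 copies fitted; limma, smallest adjusted p = 0.132), with 279 at an unadjusted p under 0.05. No count model was run for this ratio. The median relative value was -0.27, which includes the offset between the scalings of the TE and gene tables, and 3947 of 4482 values lay within 1 of 0 on the log2 scale.

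Host genes of higher copies differed in how they moved. The host gene was itself called higher for 16 of the 60 higher copies, in 13 genes, although only 0.431% of all tested genes were higher. Tmc2, Ms4a6d, Patj, Gbp9, Ifi44, Ifi203, Trim5 and Olfr701 were among them. Of the 55 higher copies with a tested host, 28 were at least 1 above it on the log2 scale, such as Pnpla8 (5.06), Focad (3.71), Anapc10 (3.09) and Lgmn (2.57), although no such difference passed the test above. The Patj and Gbp9 copies had both features, being 2.30 and 1.46 above hosts that were themselves called. The Gimd1, Klhdc7a and Thbd copies had neither, with relative values of -0.47, 0.66 and -0.01. Their host genes nevertheless had log2 fold changes of 4.46, 2.86 and 2.40, which were not called (limma adjusted p = 0.170, 0.104 and 0.156). Of the lower copies only that in Fdps had a host gene called lower (0.0423% of all tested genes), and 20 of 21 hosts had fold changes below 0.

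**Figure D5:**
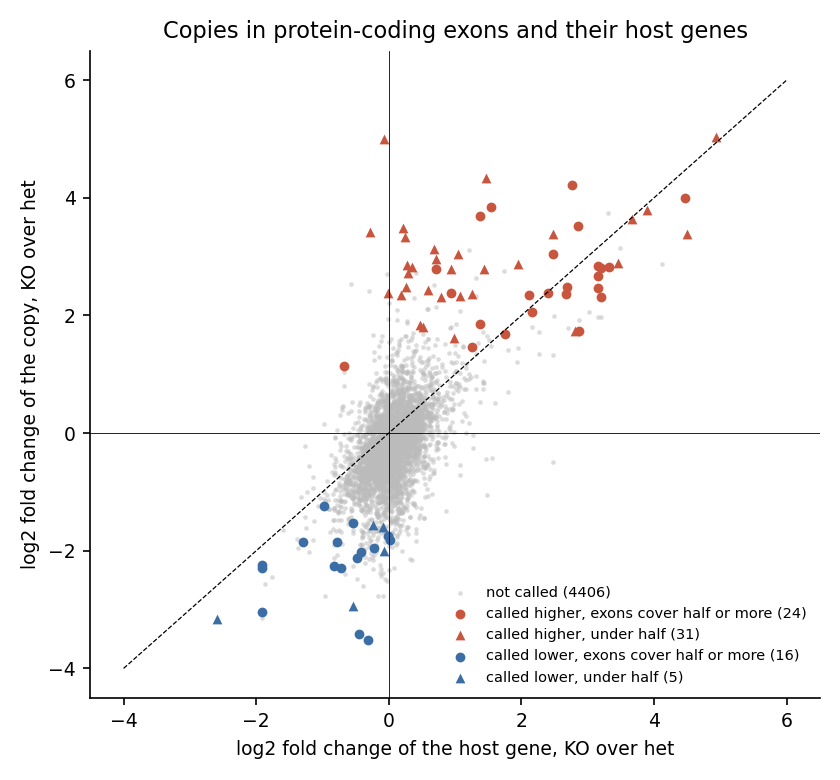
Log2 fold change of each tested exonic copy (vertical axis) against that of its host gene (horizontal axis), KO over het; grey points are not called, red points are called higher and blue points lower, with circles where exons cover at least 50% of the copy and triangles where they cover less. Of the 55 higher copies shown, 28 lie at least 1 above the dashed line of equal change.

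3 sets of host genes recurred, and the lists behind the counts below were drawn up after the values had been seen. Copies in interferon-inducible genes were higher in 7 of 29 tested cases and lower in none, in Ifi203, Ifi44, Gbp8, Gbp9 and Trim5, with a median of 0.71 over the 29. The 7 are 24.1% of the list, where 15.6% of all tested copies and 1.31% of exonic ones were higher, and 2 of them, in Gbp8 and Trim5, are over 5000 bases long. Among the 22 not called, 10 had log2 fold changes below 0, from -1.71 for the Gbp5 copy and -1.06 for the Oas2 copy upward, and the highest was that of the Mndal copy (3.75, adjusted p = 0.0672). The antiviral genes Mx1 and Ifih1 had copies at 0.37 and 0.71, not called. Without KO replicate 1 the list had 2 higher copies, and without KO replicate 3 it had 4. Copies in odorant and pheromone receptor genes were higher in 8 of 34 tested cases, in 7 genes, and lower in none (23.5%, against the same 15.6% of all tested copies). Of these 8, the copies in Olfr907, Vmn2r96, Vmn1r88 and Olfr46 are over 5000 bases long, the class with 36.8% higher. The count was 5 without het replicate 2, and 3, 4 and 2 without KO replicates 1, 2 and 3. Most exonic copies in such receptor genes were too low to be tested, since 262 were listed. The filter took the mean over all 6 libraries, so KO reads alone could bring a copy into the tested set. Called copies in Vmn2r96, Vmn1r88 and Olfr907 had het means of 7.13, 3.85 and 9.51 against 57.4, 36.6 and 66.9 in KO. Those in Olfr1224-ps1 and Olfr701 were also under 10 in het, while those in Olfr46 and Olfr1393 were not. The 24.1%, the 23.5% and the lack of falls in both lists describe tested copies only, and copies this low in het left little room to fall.

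Copies in cholesterol synthesis genes were lower in 7 of 15 tested cases and higher in none, with a median of -1.28, where 0.735% of all tested copies were lower. They were 3 copies in Lss and 1 each in Sqle (squalene epoxidase), Fdft1 (squalene synthase), Fdps (farnesyl diphosphate synthase) and Dhcr7, whose product catalyses the last step of the pathway. With gene size factors 4 of the 7 were called. The count was 6 without het replicate 3, but 3 without het replicate 1, 3 without het replicate 2 and 4 without KO replicate 1. The summed level of 7 Sertoli cell markers moved in the same direction, at 24359, 17536 and 37259 normalized reads in het against 12581, 14562 and 18099 in KO, and the groups overlapped. None of the 7 markers was called or at 0 in all libraries. Clu, Sox9 and Amh were lower in every KO library than in every het library, while Wt1, Gata4, Inha and Inhbb overlapped. The part of Sertoli cell RNA in the lower copies was not tested. The genes had fold changes below 0 as well: 2 of 19 were called lower, Fdps and Hmgcs1, and the median of the 19 was -0.81.

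Genes that descend from TEs and genes that silence TEs showed no called copy. Of 19 listed copies in exons of TE-derived genes, 11 in 9 genes were tested, with a median of -0.15. None was called by limma or by edgeR, and none had an unadjusted p under 0.05. The Moap1 copy, in a Paraneoplastic-antigen-like gene of retrotransposon origin, had normalized counts of 1005, 815 and 409 in het against 688, 594 and 606 in KO. It also lies in an exon of Gm20604, and the gene table gave Moap1 itself a het mean of only 9.27 normalized reads. The Pnma5 copy had 581, 676 and 226 in het against 480, 155 and 230 in KO, with het replicate 3 and KO replicate 2 both low. The Fv1 copy, in a retroviral restriction gene derived from an endogenous gag, had 82.3, 163 and 34.5 in het against 86.8, 68.9 and 46.2 in KO.

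The other TE-derived copies behaved likewise. The copies in L1td1, which descends from the first open reading frame of a LINE element, had means of 69.7 and 19.4 in het against 72.7 and 11.7 in KO. Those in Zcchc12 had means of 354 and 113 in het against 404 and 137 in KO, and those in Pnma2, Pnma1 (a copy shared with Dnal1) and Gin1 had 183, 93.3 and 21.8 in het against 150, 116 and 14.0 in KO. In none of these did the groups separate. The 4 tested copies in exons of TE silencing genes, in Dnmt3a, Tdrd9, Hells and Exd1, ranged from -0.45 to 0.76, and none had an unadjusted p under 0.05 or was called by edgeR.

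The most abundant exonic copies, 4 in number, did not separate the groups. The Capza1 3' UTR copy, in the gene for an actin-capping subunit, had 3558, 4222 and 1578 in het against 3706, 1485 and 3628 in KO (-0.08 ± 0.51, adjusted p = 0.952). The Psmd2 coding copy, in a proteasome subunit gene, had 3876, 4014 and 2017 in het against 3005, 1347 and 3167 in KO. The 2 most abundant Ywhaz copies, in the 3' UTR of a 14-3-3 gene, had 2503, 3186 and 1923 and 1829, 2672 and 1499 in het, and 2538, 2020 and 2107 and 1888, 1868 and 2789 in KO. Het replicate 3 was the lowest het library for all 4, and KO replicate 2 was the lowest KO library for all 4.

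Higher exonic copies were often close to other higher copies. Within 10 kb of 19 of the 60 lay a called higher copy from outside the set of exonic copies (31.7%), whereas this held for 1.77% of all tested exonic copies and for none of the 22 lower copies. Among higher copies that lay wholly in exons the share was 7 of 18, and among those with under 10% of their bases in exons it was 5 of 28.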

How the data were processed

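RNA-seq libraries of 3 het and 3 KO P0 gonocyte samples were used. Per the submitters' processing notes, reads were handled with bcl2fastq 2.20, cutadapt 1.18, HISAT2 2.1.0, featureCounts 1.5.2 and DESeq2 1.26.0 on mm10 (GRCm38). The authors deposited, for each TE copy and each gene, a signal: read counts divided by library size factors, from which whole reads were recovered (100% of TE values). The strand and multimapping settings of the counting are not given in the sources used here.

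Copies were placed on GENCODE M21 with bedtools 2.31.1. Copies averaging at least 10 normalized reads went into limma 3.58.1 (trend) on log2(value + 1), which understates changes of low copies, with Benjamini-Hochberg adjustment over all 49781 tested copies and a threshold of 0.05. Library sums were compared by exact two-sided permutation. Alternatives used edgeR 4.0.16 and DESeq2 1.42.0 on the recovered reads, other pseudocounts, filters and scalings, a replicate block, and each library left out. The replicate numbers were not used as pairs in the main fit. Deviations from the group means had correlations of 0.15, -0.24 and -0.12 between same-numbered libraries. Between libraries of different numbers they were -0.22 to 0.31. With 3 libraries per group these values cannot decide whether the samples were paired.

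Members and lists were chosen with earlier results of these data known. Named copies were, in each exon part, the 6 highest and 3 lowest fold changes among called copies with separated groups, the 4 highest means, the copies of TE-derived genes (at most 10, by mean), and any called copy in TE silencing genes or called relative to its host, of which there were 0. Other copies were named after their values were seen.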

Additional observations from a re-analysis of the deposited data

How the results depend on the processing

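Of 18 named copies that were called, none changed direction in 291 refits, and 82 refits lost the call, most often without KO replicate 1 or 3 (10 of 18 each) then without het replicate 1 or 2 and at a pseudocount of 0.1 (8 each). Those in Tmc2, Pnpla8, A830018L16Rik, Ms4a6d and Patj kept it in every refit run. The 14 named copies that were not called stayed uncalled, with 22 sign changes in 236 refits.

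Counts are given as higher and lower exonic copies. A mean of at least 50 left 22 and 14 (3' UTR 5 higher; other parts 17 and 8; same strand 9 higher; opposite strand 13 and 6). Gene size factors gave 8 lower (3' UTR 35 and 1; other parts 7 lower; same strand 4 lower; opposite strand 4 lower). Quantile normalization gave 36 and 100 (3' UTR 13 and 46; other parts 23 and 54; same strand 16 and 50; opposite strand 20 and 50). Limma without trend gave 12 lower (3' UTR 1; opposite strand 6). DESeq2 gave 55 lower (3' UTR 21; other parts 34; same strand 27; opposite strand 28). Copies with at least 50% of their bases in exons gave 24 higher (other parts 7; same strand 15; opposite strand 9). Pseudocounts of 0.1 and 10 gave 3 and 10 lower 3' UTR copies and 5 and 14 lower same-strand copies. Relative to the host gene, a pseudocount of 10 gave 3 higher and 3 lower in place of 0. The replicate block gave 10 lower (3' UTR 2; other parts 8; same strand 3; opposite strand 7), changed no other count by over 1.5 times, and gave 50 higher.

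Leaving out 1 library gave 30 to 73 higher and 5 to 26 lower exonic copies, 8 to 27 and 1 to 6 in 3' UTRs, 20 to 46 and 4 to 20 in other parts, 12 to 35 and 3 to 13 of the same strand, and 17 to 38 and 2 to 13 of the opposite strand. It gave 0 to 0 relative to the host gene. The differences in reads per 100 gene reads ranged from 0.0622 to 0.127 for all exonic copies, 0.0508 to 0.108 for 3' UTR copies and 0.0114 to 0.0305 for other parts, and the log2 ratios from 0.0543 to 0.2 for exon part and from -0.0123 to 0.072 for orientation. Leaving out het replicate 3 and KO replicate 2 together, chosen after seeing the data, gave 61 and 24. The causes were not tested. Copies with few reads limit the precision.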

Other observations

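Some exonic copies shared long words of sequence regardless of their host genes, read in the orientation of the copy. The word most often shared among 10594 copies with at least 24 exonic bases is shown with the next one, because each marks a set of related copies.
First word: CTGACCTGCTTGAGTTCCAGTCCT
Second word: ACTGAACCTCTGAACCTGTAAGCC
The first word lay in 50 copies of 185 to 425 bases, 20 of them in 3' UTRs, 29 of the host gene's orientation and 21 against it. The second lay in 40 copies, 20 of each orientation. In 7922 exonic windows of equal length directly 5' of a copy and free of listed copies, the words occurred 1 and 0 times on either strand. None of the 21 and 19 tested copies with these words was called by limma, and their median log2 fold changes were -0.25 and -0.05. Another word was shared by the copies called higher in 7 genes, namely 4930512M02Rik, Anapc10, Caps2, Cfap161, Dennd1b, Glrx2 and Olfr46.
Word of higher copies: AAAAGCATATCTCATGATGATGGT
It lay in 14 exonic copies, of which 12 were tested, 7 were called higher and 0 lower, and it was absent from the 7922 windows. Of all tested copies 15.6% were higher, and of those over 5000 bases 36.8% of exonic and 52.3% of intronic ones. The 7 higher copies were 4802 to 7445 bases long. Those in 4930512M02Rik, Anapc10, Caps2, Cfap161 and Glrx2 are the copies whose donor windows are printed above, so this word and the donor word mark partly the same copies. This word was picked from the copies called higher, so its count describes them only.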
